A study of Mus musculus with 6 samples.

Results

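Messenger RNA was sequenced from frozen liver of 6 house mice (Mus musculus), and the iron handling genes Hamp, Hamp2, Bmp6, Trf, Tfrc, Tfr2, Ftl1, Fth1, Slc40a1 and Hmox1 are described here. These 10 genes were taken by name, and each was found once in every mouse, among 47256 gene names listed once in all 6 mice. One group held 3 adult males of the inbred C57BL/6 strain, called the laboratory mice, and the other held 3 adult outbred mice caught in the wild. Wild mouse 1 was male, and wild mice 2 and 3 were female. The laboratory mice came from a breeder, and the wild mice were trapped at a pair of sites and kept for some months under standard husbandry before their liver was taken. The paper also gives a longer interval since preparation for the laboratory mice. Strain, housing history, time of preparation and, in part, sex therefore changed together between the groups and cannot be told apart. The labels name no transgene, deletion or treatment in either group.

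The liver sets the iron level of the whole body through hepcidin, a peptide hormone secreted by hepatocytes. Hepcidin binds ferroportin, the only known cellular iron exporter, and removes it from the surface of gut cells and macrophages, so that less iron enters the blood. Hepcidin transcription is driven by bone morphogenetic protein signals that report iron load and by interleukin-6 acting through STAT3 in inflammation. Iron itself travels bound to transferrin, is taken up by transferrin receptors and is stored in ferritin, and the transcripts of several of these proteins carry a small hairpin, the iron-responsive element, through which iron regulatory proteins block translation or protect the message.

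Mice carry a pair of hepcidin genes, Hamp (hepcidin) and Hamp2, a copy found beside it on chromosome 7. In GRCm38.p6, the build named by the submitters, Hamp lay at chr7:30942368-30944029 and Hamp2 at chr7:30922372-30924181, both on the minus strand and 18186 bases apart. The 250 bases before the start of each gene, from RefSeq for the same build, are shown because the genes of the pair differed in RNA level and the upstream sequence can be set beside that difference. Capitals mark the bases that differ between the aligned sequences or have no partner in the other.
Hamp, chr7:30944030-30944279, minus strand: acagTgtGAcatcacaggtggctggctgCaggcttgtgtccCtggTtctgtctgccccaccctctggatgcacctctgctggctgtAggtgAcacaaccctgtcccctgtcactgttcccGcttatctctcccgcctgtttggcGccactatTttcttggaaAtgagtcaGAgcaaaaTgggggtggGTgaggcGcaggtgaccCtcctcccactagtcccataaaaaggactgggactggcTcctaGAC
Hamp2, chr7:30924182-30924431, minus strand: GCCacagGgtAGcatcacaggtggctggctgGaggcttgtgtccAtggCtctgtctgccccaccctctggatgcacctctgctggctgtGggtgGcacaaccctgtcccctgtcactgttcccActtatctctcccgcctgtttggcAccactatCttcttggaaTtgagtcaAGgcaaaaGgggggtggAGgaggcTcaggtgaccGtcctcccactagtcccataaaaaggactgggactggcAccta
The sequences were identical at 227 of 253 aligned positions (89.7%), with 20 substitutions and 6 positions without a partner. The letters GGCGCC, a core of elements through which bone morphogenetic protein signals act on Hamp, stood at positions 142 to 147 of the Hamp sequence, counted from its 5′ end. One of the 20 substitutions, G145A with the Hamp base first, fell inside these letters, and the Hamp2 window held no GGCGCC. Among the 7 iron genes with a RefSeq window, Tfrc also held these letters. Windows with GGCGCC on either strand made up 11.9% of 32851 RefSeq windows of 300 bases (250 before to 50 after a start). TTCNNNGAA, the interrupted palindrome bound by STAT proteins, was present in both windows, at positions 154 to 162 of the Hamp sequence, with none of the substitutions inside it, and 8.30% of all windows held these letters. These matches describe the reference sequence and say nothing of the alleles of the wild mice.

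The data were 2 values per gene and mouse. FPKM is the number of fragments scaled to the length of the transcript and to the mapped fragments of the library. zFPKM is log2 FPKM after subtracting the mode of the mouse and dividing by its standard deviation (SD), so that 0 is the most common level of an expressed gene. Differences were coded as laboratory minus wild and tested on zFPKM with limma over 18627 genes, with Benjamini-Hochberg adjustment over all of them. The mode ran from 0.49 to 2.12 log2 FPKM in the laboratory mice and from 1.31 to 2.51 in the wild mice, and the median gene lay 0.47 lower in the laboratory mice on log2(FPKM + 0.1) but 0.0052 higher on zFPKM. An FPKM that is lower in the laboratory mice is therefore read below against that shift. Laboratory mouse 3 had the highest mode of its group and wild mouse 1 the highest of all. Their SDs of log2 FPKM were the smallest, at 2.51 and 2.69 beside 2.89 to 3.12 in the other mice. Values without them are given where they matter. Wild mouse 1 was the only wild male, so any fit without it compared laboratory males with wild females. Group and sex cannot be told apart in such a fit. The hepatocyte genes Apoa1 and Ttr stood at 7137 FPKM or more in all mice, whereas Alb had no usable estimate in 5 of 6. Of the marker lists, 3 of 5 tested for hepatocytes were higher and 2 lower in the laboratory mice, and 1 of 6 for stellate cells was higher, beside 7.19% and 7.26% of all genes. Erythroid markers, most of them higher in the laboratory mice, are given with Tfrc. In a bulk sample, fewer cells of a type and less RNA per cell cannot be told apart.

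On zFPKM both hepcidin genes were higher in the laboratory mice and transferrin was lower. These were the 3 of 10 iron genes that passed the adjusted threshold of 0.05 (2 higher and 1 lower), beside a background of 14.5% of all genes tested, 7.19% higher and 7.26% lower. Among 19 alternative settings Hamp2 passed in 19, Trf in 17 and Hamp in 13. On zFPKM the mice of the groups did not overlap for Hamp and Hamp2 (laboratory above) or for Trf, Tfrc and Tfr2 (laboratory below), beside 28.3% of all genes without overlap (14.2% above and 14.1% below). On FPKM, 7 of the 10 lay below the wild mice in every laboratory mouse and only Hamp2 lay above, beside 55.8% of all genes without overlap (43.7% below and 12.1% above).

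**Figure D1:**
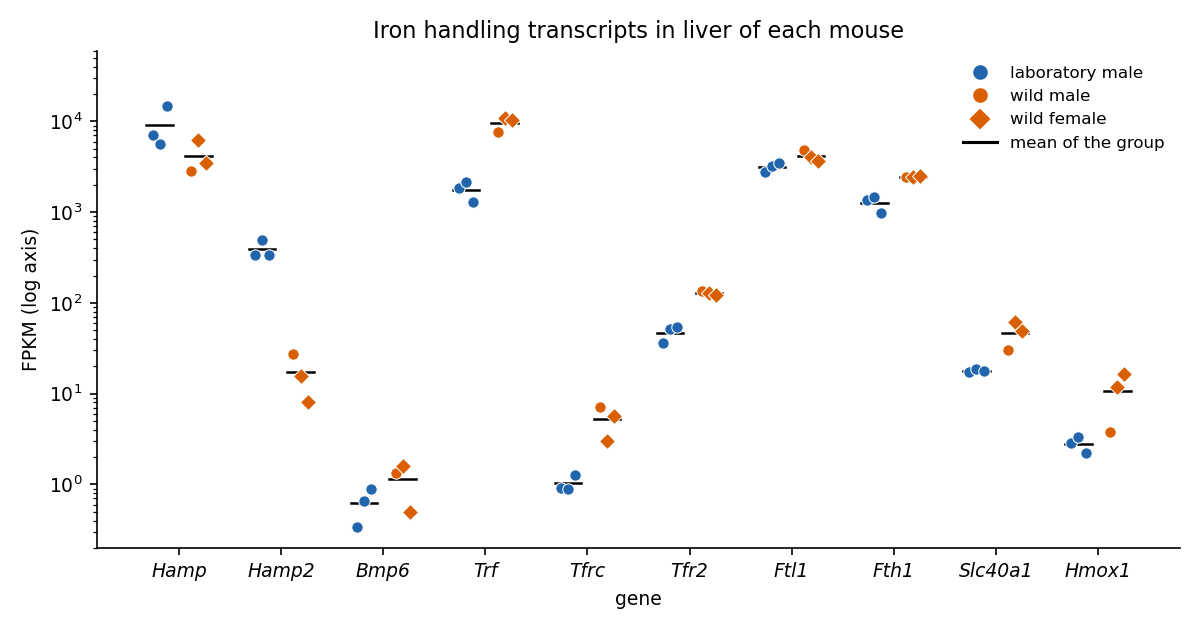
FPKM on a log axis of the 10 iron handling genes in each of 6 mice, with circles for males, diamonds for females and a bar for the mean of the group. Hamp2 lies between 338 and 493 in laboratory mice but between 8.12 and 27.6 in wild ones, and Trf stands in the opposite order.

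Hamp2, whose product is also a hepcidin but has not been shown to control iron in the way that hepcidin 1 does, was the gene that separated the groups most among the 10. It read 340.2, 493 and 338 FPKM in laboratory mice 1, 2 and 3, and 27.6, 15.6 and 8.12 FPKM in wild mice 1, 2 and 3. All laboratory mice stood far above all wild mice, and within the wild group the male was the highest. The means were 390.4 ± 89.1 and 17.1 ± 9.84 FPKM (SD, n = 3 each), a ratio of 22.8. The difference was 1.86 zFPKM (standard error, SE, 0.127; limma adjusted p = 1.86e-45), and it passed the threshold in 19 of 19 alternative settings, where it ran from 1.73 to 1.97 zFPKM. On log2(FPKM + 0.1) it was 4.65, which is 5.12 above the median gene. The bounds the authors' counting program gave for the smallest estimate, wild mouse 3, were 5.70 and 10.5 FPKM, far below the lowest bound in a laboratory mouse with bounds, 320.1 FPKM.

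Hamp was among the most abundant transcripts of all 6 livers, ranking between place 10 and place 34 of 18118 to 19728 gene names with a value. It read 7014, 5642 and 14843 FPKM in laboratory mice 1 to 3, and 2833, 6168 and 3459 FPKM in wild mice 1 to 3. Laboratory mouse 3 stood apart at the top, and wild mouse 2 lay above laboratory mouse 2, so the FPKM values overlapped. The zFPKM values did not, with 3.83 to 4.68 in the laboratory mice and 3.33 to 3.61 in the wild mice. The difference was 0.68 zFPKM (SE 0.0827; limma adjusted p = 2.95e-14). That p rests on the SD that limma gives genes of this level, 0.101, whereas the 6 Hamp values had an SD of 0.340 within groups; without the variance trend the adjusted p was 0.195. Hamp also missed the threshold on log2(FPKM + 1) (limma adjusted p = 0.110), on log2(FPKM + 0.1) (0.0944) and with a zFPKM floor of -20 (0.165). It missed with the median zFPKM of every mouse set to 0 (limma adjusted p = 0.507). After quantile normalization the difference was 0.14 (limma adjusted p = 0.565). The zFPKM difference fell to 0.42 without laboratory mouse 3 (adjusted p = 6.51e-05) and to 0.35 without laboratory mouse 3 and wild mouse 1 (adjusted p = 0.0255).

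The balance of the pair was compared within each mouse. Hamp2 made up 4.85%, 8.74% and 2.28% of the Hamp level in laboratory mice 1 to 3 and 0.975%, 0.253% and 0.235% in wild mice 1 to 3. Every laboratory mouse lay above every wild mouse, and the wild male was the highest of its group. The mean log2 ratio was -4.45 ± 0.97 for laboratory mice against -8.01 ± 1.16 for wild mice (SD, n = 3 each), an 11.9-fold difference (two-sided exact permutation p = 0.1, the smallest that 3 against 3 allows). A ratio within a mouse does not depend on how that mouse was scaled. The sum of both genes overlapped between the groups, with 6135 to 15181 FPKM in the laboratory mice and 2861 to 6184 in the wild mice.

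Reads of the pair could be mistaken for one another, so the transcripts were aligned. The coding sequences were identical at 92.5% of aligned positions, and the longest stretch without a difference was 80 bases. Of 311 windows of 100 bases in the Hamp transcript, 0 occurred unchanged in Hamp2. How the authors' programs shared fragments that fit both genes was not given in the sources used here, so the split between them is uncertain, and differences of the wild mice from the reference strain at this locus were not analysed here. Usf2, the transcription factor gene next to Hamp, differed in the other direction, at 7.01 to 10.2 FPKM in the laboratory mice and 27.4 to 40.2 FPKM in the wild mice (zFPKM difference -0.45, SE 0.165; limma adjusted p = 0.0479).

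**Figure D2:**
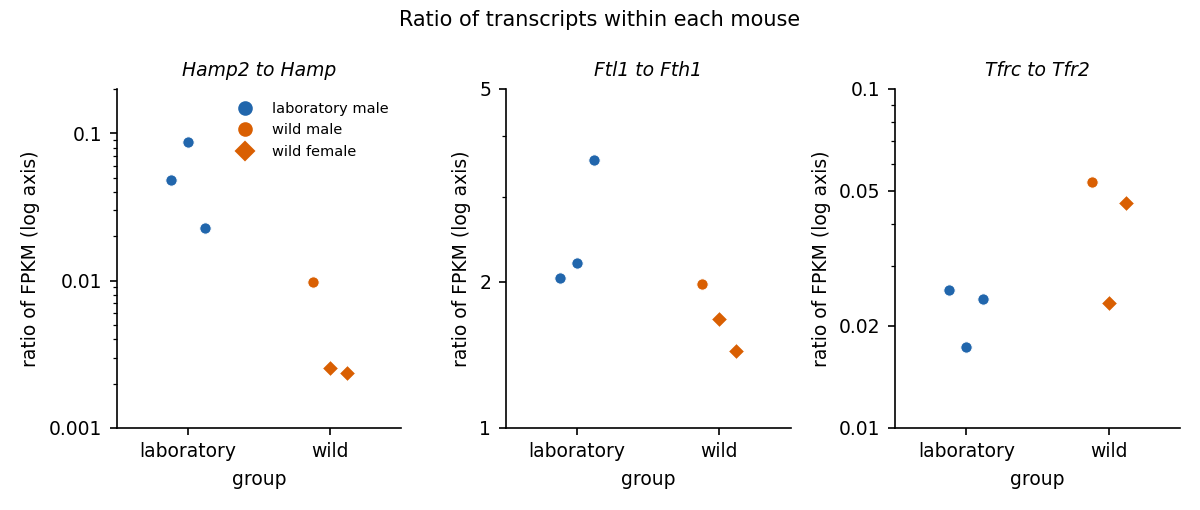
Ratio of FPKM within each mouse, on log axes, for Hamp2 to Hamp, Ftl1 to Fth1 and Tfrc to Tfr2, with circles for males and diamonds for females. The Hamp2 to Hamp ratio separates the groups by 11.9-fold, the Ftl1 to Fth1 ratio by 1.49-fold, and the Tfrc to Tfr2 ratios overlap.

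Bmp6, the ligand that liver endothelial cells secrete as iron rises, was the lowest of the 10 genes in both groups. It read 0.336, 0.656 and 0.894 FPKM in the laboratory mice and 1.34, 1.59 and 0.500 FPKM in the wild mice. The groups overlapped, and wild mouse 3 lay below laboratory mice 2 and 3. The zFPKM difference was -0.03, with a 95% interval from -0.72 to 0.66 (limma adjusted p = 0.973), so changes of either sign remained within the error. Its window, chr13:38345466-38345765, was the only one among the 7 iron genes with a RefSeq window to hold TGACNNNGC, the core of the antioxidant response element, which 12.4% of all windows held. The 8 markers of liver sinusoidal endothelial cells summed to 29.2 to 46.7 FPKM in the laboratory mice and 23.5 to 76.5 FPKM in the wild mice, and none passed the threshold.

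Trf encodes transferrin, the plasma carrier of iron, which hepatocytes secrete. It read 1842, 2126 and 1291 FPKM in laboratory mice 1 to 3 and 7699, 10798 and 10295 FPKM in wild mice 1 to 3. The laboratory mice all lay below the wild mice, with means of 1753 ± 425 and 9597 ± 1663 FPKM (SD, n = 3 each), a 5.47-fold lower level. The difference was -0.59 zFPKM (SE 0.0848; limma adjusted p = 3.30e-10), and on log2(FPKM + 0.1) it was -2.47 (adjusted p = 0.000515), or -1.73 once each mouse was centred on its median (adjusted p = 0.0226). It passed in 17 of 19 alternative settings, the exceptions being the fit without the variance trend (adjusted p = 0.113) and a median zFPKM of 0 imposed on every mouse (adjusted p = 0.500). Trf was the most abundant of the 10 genes in the wild mice and the third most abundant in the laboratory mice.

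Tfrc (transferrin receptor 1) imports iron-loaded transferrin into cells, and Tfr2 (transferrin receptor 2) is a hepatocyte sensor of transferrin saturation that takes part in hepcidin control. Tfrc read 0.915, 0.896 and 1.29 FPKM in the laboratory mice and 7.18, 3.02 and 5.60 FPKM in the wild mice. All laboratory mice lay below all wild mice, with means of 1.03 ± 0.219 and 5.27 ± 2.10 FPKM (SD, n = 3 each), a 5.10-fold lower level. The zFPKM difference of -0.56 (SE 0.266; limma adjusted p = 0.156) did not pass the threshold at this low level of expression. It did pass in 6 of 19 alternatives. On log2(FPKM + 0.1) it was -2.18 (limma adjusted p = 0.00197), and with each mouse centred on its median it was -1.44 there (adjusted p = 0.0117). It also passed without laboratory mouse 3 and wild mouse 1 (adjusted p = 0.0245), a fit that left no wild male. With sex as a covariate it was -0.53 on zFPKM and did not pass (limma adjusted p = 0.307).

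Tfr2 read 36.0, 51.7 and 53.7 FPKM in the laboratory mice and 135.3, 129.4 and 121 FPKM in the wild mice. The groups did not overlap on either scale, and the wild mice were close together, with means of 47.1 ± 9.71 and 129 ± 7.10 FPKM (SD, n = 3 each). The zFPKM difference of -0.25 (SE 0.127; limma adjusted p = 0.188) missed the threshold, while on log2(FPKM + 0.1) it was -1.47 (adjusted p = 0.000557), or -0.73 once each mouse was centred on its median (adjusted p = 0.0177). Tfr2 exceeded Tfrc in every liver, and the ratio of Tfrc to Tfr2 was 0.0255, 0.0173 and 0.0239 in laboratory mice 1 to 3 against 0.0530, 0.0233 and 0.0462 in wild mice 1 to 3. The ratios overlapped, since wild mouse 2 fell among the laboratory mice (two-sided exact permutation p = 0.3). Developing red cells hold much Tfrc. The globin genes Hba-a1, Hba-a2, Hbb-bs and Hbb-bt and the erythroid haem synthesis gene Alas2 passed as higher in the laboratory mice, while Slc4a1 did not pass. The groups overlapped for Hbb-bs and Hbb-bt on both scales. Without the variance trend Alas2 passed (limma adjusted p = 0.0450), but Hba-a1 (0.146) and Hba-a2 (0.0951) did not. Hba-a1, the highest of these markers, read 548 to 1854 FPKM in the laboratory mice against 315 to 608 FPKM in the wild mice, and Alas2 read 27.7 to 39.3 against 6.81 to 11.1 FPKM. Slc4a1 was listed at 0 in wild mouse 3, and the others were above 0 in all mice. Their part in the Tfrc values was not tested.

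The iron-responsive elements of the ferritins, ferroportin and Tfrc are shown because they mark the transcripts among the 10 that answer to cell iron after transcription. Each is 29 bases of GRCm38.p6 with the 6-base loop in capitals, found by a search for a loop CAGTGN on a paired upper stem with a C before it. Whether that C was unpaired and whether a lower stem followed were not checked, and elements of another form would be missed. The first 3 lie in the 5′ untranslated region, where a bound iron regulatory protein blocks translation. The Tfrc elements found lie in the 3′ untranslated region, where it protects the message.
Fth1, chr19:9982732-9982760, plus strand: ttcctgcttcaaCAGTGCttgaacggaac
Ftl1, chr7:45459779-45459807, minus strand: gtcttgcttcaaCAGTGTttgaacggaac
Slc40a1, chr1:45925465-45925493, minus strand: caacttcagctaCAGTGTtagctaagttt
Tfrc, chr16:32631219-32631247, plus strand: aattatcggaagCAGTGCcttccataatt
Tfrc, chr16:32631598-32631626, plus strand: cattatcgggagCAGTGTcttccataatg
Tfrc, chr16:32631663-32631691, plus strand: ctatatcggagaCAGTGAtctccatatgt
Tfrc, chr16:32631710-32631738, plus strand: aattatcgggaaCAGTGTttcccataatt
The same search found an element in the 5′ untranslated region of 0.104% of genes (21 of 20248) and in the 3′ untranslated region of 0.563% (117 of 20794). RNA levels do not show translation, and no protein was measured.

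Ftl1 and Fth1, the light and heavy chains of ferritin, differed little between the groups on zFPKM. Ftl1 read 2761, 3187 and 3462 FPKM in the laboratory mice and 4855, 4044 and 3629 FPKM in the wild mice. The FPKM values did not overlap, whereas on zFPKM the difference was 0.13 with overlapping groups (SE 0.0854; limma adjusted p = 0.350), and it was -0.41 on log2(FPKM + 0.1) (adjusted p = 0.215). After quantile normalization it was -0.27 and passed in that direction (adjusted p = 0.0453). Fth1 read 1358, 1456 and 970 FPKM in the laboratory mice and 2457, 2415 and 2522 FPKM in the wild mice. The 3 wild mice agreed closely, and the zFPKM difference was -0.08 with a 95% interval from -0.26 to 0.09 (limma adjusted p = 0.619).

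The chains were not in the same proportion in each liver. The ratio of Ftl1 to Fth1 was 2.03, 2.19 and 3.57 in laboratory mice 1 to 3 against 1.98, 1.67 and 1.44 in wild mice 1 to 3. The groups did not overlap, but laboratory mouse 1 and wild mouse 1 lay close together, and the 1.49-fold difference (two-sided exact permutation p = 0.1, the smallest possible) fell from 0.58 to 0.33 on the log2 scale without laboratory mouse 3. Ftl1 is also the uncertain member of the pair, since genes named as processed copies of it also had signal, and how fragments that fit several of them were shared was not given in the sources used here. Ftl1-ps1 read 232 to 356 FPKM in the laboratory mice and 664 to 1264 FPKM in the wild mice, and Ftl2-ps read 199.6 to 323 and 577 to 1117 FPKM. With the copies added, the sum was 3193, 3738 and 4141 FPKM in the laboratory mice and 6510, 6429 and 4872 FPKM in the wild mice. The copies held 13.5% to 16.4% of that sum in the laboratory mice and 25.4% to 37.1% in the wild mice, and the ratio of the sum to Fth1 then overlapped, at 2.35, 2.57 and 4.27 against 2.65, 2.66 and 1.93. The groups were thus separate in this ratio only where the copies were left out.

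Slc40a1 encodes ferroportin, the iron exporter of macrophages and hepatocytes and the target of hepcidin. It read 17.34, 18.63 and 17.97 FPKM in the laboratory mice and 30.6, 61.6 and 48.5 FPKM in the wild mice. The laboratory mice were nearly identical and lay below the wild mice, but the zFPKM values overlapped, with a difference of -0.20 (SE 0.150; limma adjusted p = 0.428). On log2(FPKM + 0.1) it was -1.32 (adjusted p = 0.00381), but -0.58 once each mouse was centred on its median, which did not pass (adjusted p = 0.0855), and with sex as a covariate the zFPKM difference changed sign to 0.13 (adjusted p = 0.713).

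Hmox1, the inducible haem oxygenase that frees iron from haem, read 2.88, 3.33 and 2.24 FPKM in the laboratory mice and 3.80, 11.9 and 16.4 FPKM in the wild mice. The wild females were high and the wild male lay close to the laboratory males. The zFPKM difference was -0.34 (SE 0.217; limma adjusted p = 0.332), and it was -0.67 without wild mouse 1 (adjusted p = 0.0259) and 0.31, the opposite sign, with sex as a covariate (adjusted p = 0.568). Kupffer cells, the liver macrophages that digest red cells, express both Hmox1 and Slc40a1, and their 7 markers varied widely within the wild group. The marker sum, lowest and highest in the same wild mice as Hmox1, was 12.4 FPKM in wild mouse 1, 48.4 FPKM in wild mouse 2 and 124.5 FPKM in wild mouse 3, beside 35.2 to 43.6 FPKM in the laboratory mice. None of the 7 markers passed the threshold in the main test, and none of the 7 was at 0 in any mouse. With sex as a covariate Clec4f, the highest of them, was 1.07 zFPKM higher in the laboratory mice (limma adjusted p = 0.00691). The other markers are not given for that fit. The part of these markers in the Hmox1 and Slc40a1 values was not tested.

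**Figure D3:**
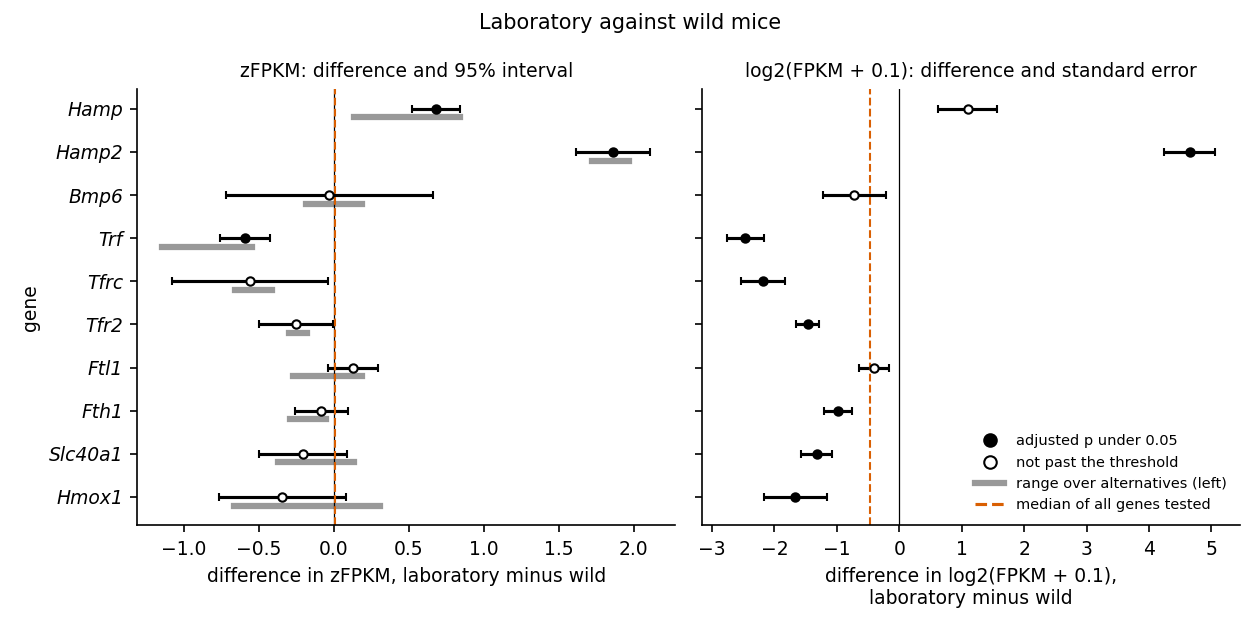
Difference between laboratory and wild mice for the 10 genes on zFPKM (left, with the 95% interval of the limma fit and, in grey, the range over the zFPKM alternatives) and on log2(FPKM + 0.1) (right, with the standard error). Filled points passed the adjusted threshold, the dashed line is the median of all genes tested, and Hamp2 stands at 1.86 and 4.65, far to the right of the other 9 genes in both panels.

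The choice of scale decided how many iron genes passed. On log2(FPKM + 0.1), 7 of 10 passed, with Hamp2 higher and Trf, Tfrc, Tfr2, Fth1, Slc40a1 and Hmox1 lower in the laboratory mice, beside 46.2% of all genes (8.21% higher and 38.0% lower). With the median of each mouse then set to 0, 5 of 10 passed, namely Hamp and Hamp2 higher and Trf, Tfrc and Tfr2 lower, beside 47.4% of all genes (28.7% higher and 18.7% lower). Without the variance trend Hamp2 alone passed, beside 4.27% of all genes, and with sex as a covariate the same 3 genes as in the main test passed, beside 7.54%. Quantile normalization gave 6 of 10 beside 39.1% of all genes, setting the median zFPKM of every mouse to 0 gave 2 of 10 beside 28.4%, log2(FPKM + 1) gave 7 of 10 beside 44.3%, and leaving out laboratory mouse 3 and wild mouse 1 gave 7 of 10 (Tfrc, Tfr2, Slc40a1 and Hmox1 lower besides the 3 of the main test) beside 32.3%. In each of these the share of all genes moved as well, so the counts of the 10 are read against it. The fit without laboratory mouse 3 and wild mouse 1 set laboratory males against wild females, so its calls cannot be told apart from sex. Hamp2 was the single gene of the 10 that passed in all settings run.

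The order of the 10 genes by level, in FPKM and therefore per length, also differed between the groups. In the laboratory mice it was Hamp, Ftl1, Trf, Fth1, Hamp2, Tfr2, Slc40a1, Hmox1, Tfrc and Bmp6, and of these neighbours only Trf and Fth1 had overlapping ranges. In the wild mice it was Trf, Ftl1, Hamp, Fth1, Tfr2, Slc40a1, Hamp2, Hmox1, Tfrc and Bmp6, with overlap between Ftl1 and Hamp, between Hamp2 and Hmox1 and between Hmox1 and Tfrc. Hamp2 stood above Tfr2 and Slc40a1 in the laboratory mice and below both in the wild mice, where it reached the level of Hmox1.

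Genes with a pattern most like Hamp or Tfrc were sought among 14610 genes above the floor in all mice, by the root mean square difference of centred zFPKM over the 6 mice. Closest to Hamp were Echdc2, an enoyl-CoA hydratase family gene, at 0.124, and the apolipoproteins Apoc1 and Apoc3, at 0.157 and 0.158, where Hamp itself had a root mean square of 0.440 about its mean. Echdc2 shared the peak of Hamp in laboratory mouse 3, at 346 FPKM beside 86.6 and 88.3 FPKM in laboratory mice 1 and 2 and 44.7 to 68.9 FPKM in the wild mice. Apoc1 and Apoc3 peaked in laboratory mouse 3 on zFPKM only, at 5.27 and 4.61. In FPKM, Apoc1 was highest in laboratory mouse 2 (50756) and Apoc3 in laboratory mouse 1 (14411). Closest to Tfrc were the glutathione transferase Gsta2 at 0.0431, the mitochondrial phosphatidylserine decarboxylase Pisd at 0.0452 and the secreted chaperone Clu at 0.0571, where Tfrc itself had 0.321. Gsta2 ran from 18.97 to 25.28 FPKM in the laboratory mice and from 110.6 to 136.7 FPKM in the wild mice. These likenesses rest on 6 mice and include each mouse's scaling.

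The rest of the pathway was described by 5 lists of iron and haem handling genes, on which 3 genes were higher and 8 lower of 60 tested (18.3%), beside the 14.5% of all genes tested, 7.19% higher and 7.26% lower. NRF2 targets and acute phase genes, which respond to stress rather than handle iron, made up the other lists. Of 84 names on 7 lists, 81 were tested and 21 passed (25.9%), 5 higher and 16 lower, with a median difference of -0.18 zFPKM beside 0.0052 for all genes tested. The split was 1 higher and 49 lower on log2(FPKM + 0.1), where 8.21% and 38.0% of all genes were higher and lower. It was 8 and 31 on that scale with medians at 0, beside 28.7% and 18.7% of all genes, and 4 and 2 with sex as a covariate, beside 1153 and 252 of all genes. Among the genes named from these lists, Hspa9 and the fibrinogen chain Fga passed in all 19 alternatives, and these 2 were the pathway genes that passed without the variance trend. Calls near the threshold, such as Hjv and Hp, were lost in more than 10 of the 19. With sex as a covariate Blvrb, Hspa9, Fga and Orm2 kept their calls. Those of Il6ra, Stat3, Tmprss6, Hjv, Slc39a8, Aco1, Cpox, Fech, Nqo1, Txnrd1, Hp and Crp were lost in that fit.

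**Figure D4:**
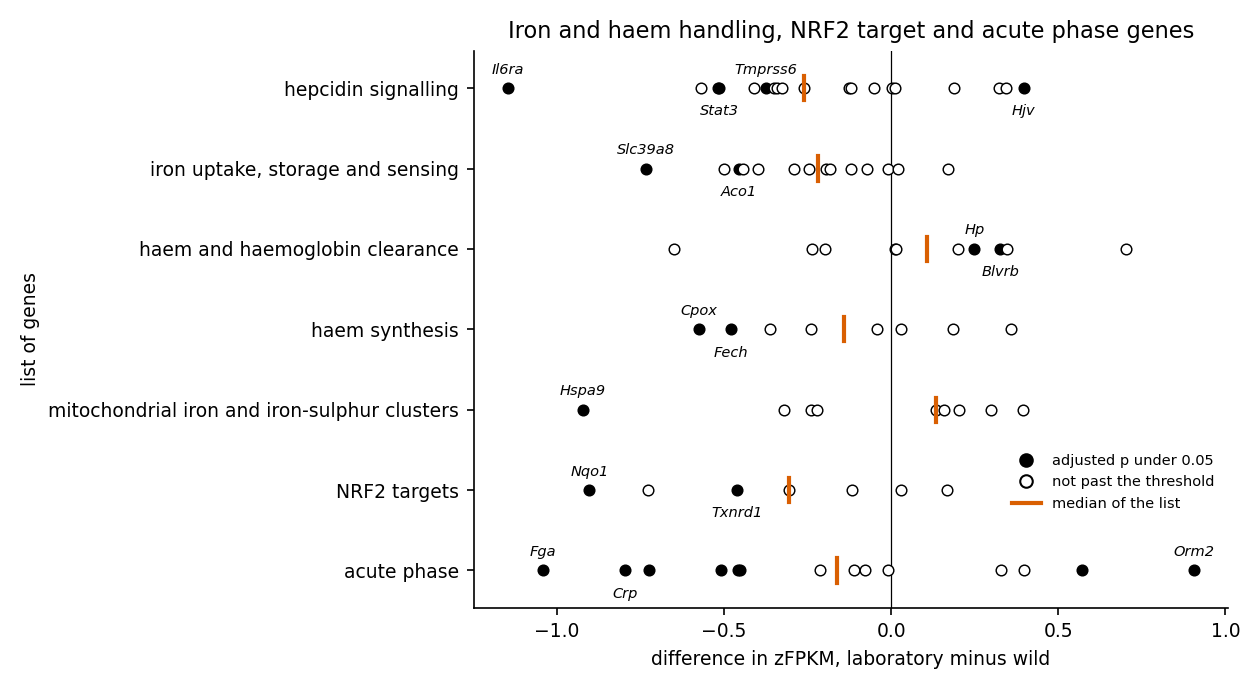
Difference in zFPKM, laboratory minus wild, of each tested gene on 7 lists, with filled points for an adjusted p under 0.05, an orange bar for the median of the list and names for the genes described in the text. Il6ra at -1.15 and Fga at -1.04 lie farthest to the left, and Orm2 at 0.90 lies farthest to the right.

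On the hepcidin signalling list, 1 of 19 genes tested was higher, 3 were lower and 15 did not pass, with a median of -0.26 zFPKM. This count and those of the lists that follow stand beside 7.19% of all genes higher and 7.26% lower, and nothing particular to a list is read from them. Il6ra, the interleukin-6 receptor, read 0.666, 0.622 and 1.12 FPKM in the laboratory mice and 5.55, 19.8 and 19.9 FPKM in the wild mice. The laboratory mice all lay below, and the wild male lay between them and the wild females (difference -1.15 zFPKM, SE 0.243; limma adjusted p = 7.42e-05). With sex as a covariate the difference was -0.52 (adjusted p = 0.265). Stat3, the transcription factor that carries the interleukin-6 signal, was also lower, at 5.93 to 7.23 FPKM against 24.4 to 36.9 FPKM (-0.51 zFPKM; limma adjusted p = 0.0239). With sex as a covariate the Stat3 difference was -0.25 (limma adjusted p = 0.504).
Tmprss6, the protease that limits hepcidin by cleaving hemojuvelin, was lower as well, at 52.7 to 56.6 FPKM in the laboratory mice against 179 to 215 FPKM in the wild mice (-0.37 zFPKM; limma adjusted p = 0.0204). With sex as a covariate the Tmprss6 difference was -0.26 (limma adjusted p = 0.334). Hjv, which encodes hemojuvelin, the co-receptor of bone morphogenetic proteins, was higher, at 27.6, 42.5 and 53.0 FPKM against 38.9, 24.8 and 27.8 FPKM, values that overlapped in FPKM but not in zFPKM (0.40 zFPKM; limma adjusted p = 0.0437). Readouts of bone morphogenetic protein signalling did not pass. Id1, a direct target of that pathway, read 9.72, 5.59 and 21.2 FPKM in the laboratory mice and 4.04, 23.7 and 9.91 FPKM in the wild mice (0.32 zFPKM; limma adjusted p = 0.261), and the inhibitor Smad7 differed by 0.01 zFPKM (adjusted p = 0.986).

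For uptake, storage and sensing, 0 of 14 genes tested were higher and 2 were lower, with a median of -0.22 zFPKM. Slc39a8, a metal importer, read 1.58 to 1.79 FPKM in the laboratory mice and 10.4 to 14.3 FPKM in the wild mice (-0.73 zFPKM; limma adjusted p = 0.0113). Aco1, which encodes iron regulatory protein 1, the protein that binds the hairpins printed above when it lacks its iron-sulphur cluster, read 14.1 to 21.5 FPKM and 63.5 to 74.1 FPKM (-0.45 zFPKM; limma adjusted p = 0.0169). Cp, which encodes the ferroxidase ceruloplasmin and was the highest of this list, differed by 0.02 zFPKM (adjusted p = 0.930).

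For haem and haemoglobin clearance, 2 of 10 genes tested were higher and 0 lower, with a median of 0.11 zFPKM. These were Blvrb, a biliverdin reductase (0.33 zFPKM; limma adjusted p = 0.0369), and Hp, the haemoglobin carrier haptoglobin (0.25 zFPKM; limma adjusted p = 0.0343). Both overlapped in FPKM, and Hp overlapped in zFPKM as well. Of 8 haem synthesis genes 0 were higher and 2 were lower, with a median of -0.14 zFPKM. Cpox, coproporphyrinogen oxidase, read 8.15 to 12.5 FPKM in the laboratory mice and 43.9 to 59.2 FPKM in the wild mice (-0.57 zFPKM; limma adjusted p = 0.00376), and Fech, ferrochelatase, which inserts iron into haem, read 11.1 to 17.1 and 56.9 to 61.4 FPKM (-0.48 zFPKM; limma adjusted p = 0.0142). Alad, the highest of that list, read 104.4 to 114 FPKM and 95.7 to 177 FPKM and did not pass (0.18 zFPKM; limma adjusted p = 0.350).

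On the mitochondrial iron list, 1 of 9 genes tested passed. Hspa9, the chaperone that helps hand over iron-sulphur clusters, read 21.7, 24.7 and 24.7 FPKM in the laboratory mice and 279, 239 and 224 FPKM in the wild mice. The groups lay far apart with little spread inside either (-0.92 zFPKM, SE 0.127; limma adjusted p = 5.81e-11), while the scaffold gene Iscu differed by 0.20 zFPKM (adjusted p = 0.297) and the list's median was 0.13. Among 7 targets of NRF2, the oxidative stress factor that also induces Hmox1 and the ferritins, 2 were lower and 0 higher. Nqo1, a quinone reductase, read 1.40 to 2.77 FPKM and 15.1 to 24.8 FPKM (-0.90 zFPKM; limma adjusted p = 0.000228), Txnrd1, thioredoxin reductase, differed by -0.46 (limma adjusted p = 0.0273), and Gclc, the highest of the list, did not pass (0.17 zFPKM; limma adjusted p = 0.449).

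The acute phase list holds liver genes that, like Hamp, respond to inflammation. Here 2 of 14 were higher, 6 were lower and 6 did not pass, with a median of -0.16 zFPKM. Fga, a fibrinogen chain, read 84.8, 143.9 and 79.8 FPKM in the laboratory mice and 1009.5, 1628 and 1417 FPKM in the wild mice (-1.04 zFPKM; limma adjusted p = 1.03e-20). Orm2, an orosomucoid, stood in the opposite order, at 458, 193 and 133 FPKM against 53.9, 61.5 and 65.2 FPKM (0.90 zFPKM; limma adjusted p = 7.40e-12). Crp, C-reactive protein, was lower in the laboratory mice (-0.80 zFPKM; limma adjusted p = 7.72e-08), and Fgb, the highest of the list, differed by -0.01 zFPKM (adjusted p = 0.965). Genes of the list therefore differed in both directions.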

How the data were processed

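Liver RNA of 3 laboratory C57BL/6 mice and 3 wild mice was analysed from one deposited table per mouse. The authors made stranded poly(A) libraries, aligned reads to the masked mouse genome with kalign, computed FPKM with the Tuxedo programs and transformed them to the deposited zFPKM score with the R package zFPKM. The submitters' processing notes name GRCm38.p6 and Picard, and the study states program versions for its chromatin reads but not for the RNA reads analysed here. The files hold no counts, so the depth of each mouse is unknown and no counting interval is given. The program's own FPKM bounds cover that estimate only. The design assumed these units.

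Estimates without a status of OK, and in laboratory mouse 1, whose table has no status column, values at 0 for such genes, were treated as missing (28 names, no iron gene). zFPKM below -3 was set to -3, and genes above -3 in at least 3 mice with at least 2 estimates per group were tested with limma 3.58.1 in R 4.3.3 (empirical Bayes with trend) and Benjamini-Hochberg adjustment. Ratios within a mouse were compared by exact permutation in scipy 1.17.1. The fit was run on simulated data with shifts larger than the zFPKM difference of any of the 10 genes. That run does not show how well smaller differences are recovered. Alternatives varied the floor, filter, scale (log2 of FPKM + 1 or + 0.1), normalization, variance trend, sex, missing values and mice, and 2 of them were added after the data had been seen. The 10 genes, the pathway and marker lists and the motifs were chosen with earlier results of these data known. Named genes were the 10 iron genes, of each list the 3 largest differences among genes that passed and the highest by mean zFPKM, and the 3 genes most like Hamp and Tfrc. Id1, Smad7, Usf2, Hbb-bs, Hbb-bt, Slc4a1 and the Ftl1 copies were added after their values were seen, and 1 erythroid marker is not reported here. P-values concern these mice only. In the main test limma used the SD of genes at the same level in place of each iron gene's own. That SD was below the gene's own for some, such as Hamp2 (0.156 against 0.180) and Hmox1 (0.266 against 0.490). For others it was above, such as Trf (0.104 against 0.0634) and Tfrc (0.325 against 0.195). Sequences are RefSeq's for GRCm38.p6, and 7 of 10 genes matched a promoter window.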

Additional observations from a re-analysis of the deposited data

How the results depend on the processing

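Of the 10 iron genes, 3 passed in the main test, and between 3 and 4 when 1 mouse was left out. The count was 7 on log2(FPKM + 1), 7 on log2(FPKM + 0.1), 6 after quantile normalization, 1 without the variance trend, 5 on log2(FPKM + 0.1) after each mouse was centred on its median, and 7 without laboratory mouse 3 and wild mouse 1, the last 2 alternatives being chosen after seeing the data. Over all genes, 2692 passed, and 1337 to 3071 with 1 mouse left out. That count was 1198 with a floor of -20, 1420 with no filter beyond 1 mouse above the floor, 8254 on log2(FPKM + 1), 8599 on log2(FPKM + 0.1), 7292 after quantile normalization, 5285 with each mouse centred on its median zFPKM, 796 without the trend, 1405 with sex as a covariate (1153 higher and 252 lower), 8826 on centred log2(FPKM + 0.1) and 5620 without laboratory mouse 3 and wild mouse 1. Of the pathway genes, 21 passed, and 10 to 26 with 1 mouse left out. In the same order the count was 7, 12, 47, 50 and 41 up to quantile normalization, then 2 without the trend, 6 with sex, 39 on the centred scale and 41 without laboratory mouse 3 and wild mouse 1. With mice left out, counts over all genes fell in some fits and rose in others, as to 3071 without laboratory mouse 3. Fits without wild mouse 1 held no wild male. The causes of these changes were not tested.

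The sign changed for 4 iron genes that had not passed in the main test. Ftl1 was -0.41 on both log2 scales and -0.27 after quantile normalization, where it passed in that direction (adjusted p = 0.0453, of 0.0453 to 0.950 over its alternatives). Slc40a1 was 0.13 and Hmox1 was 0.31 with sex as a covariate. Bmp6 was 0.0032 on centred zFPKM, 0.10 with sex, between -0.19 and 0.19 with 1 mouse left out (above 0 without laboratory mouse 3 or wild mouse 2), 0.0202 on the centred log2 scale and 0.0195 without laboratory mouse 3 and wild mouse 1. Hamp was past the threshold in 13 of 19 alternatives and had a difference of 0.14 after quantile normalization. The within-mouse ratios kept their direction, from 3.10 to 4.23 for Hamp2 to Hamp, 0.33 to 0.73 for Ftl1 to Fth1 and -1.17 to -0.58 for Tfrc to Tfr2 (log2) with 1 mouse left out. No paired analysis was made, since the groups were separate animals with no pairing in the design. With 3 mice a group and no counts, the depth behind low genes such as Bmp6 and Tfrc is unknown.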
